A study of Rattus norvegicus with 6 samples.

Results

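The expression of 10 genes of the elastic fibre and its microfibril scaffold was followed in fibrotic rat liver, with and without the plant biflavone ginkgetin. The genes were Eln, Fbn1, Ltbp2, Emilin1, Mfap5, Fbln2, Fbln5, Lox, Loxl1 and Loxl2, taken by gene symbol. All 10 were found among the 16209 rows of the deposited table, and all 10 were among the 14639 genes with enough signal to be tested. The set was chosen by gene name with the earlier ginkgetin against vehicle values of these same libraries known. The levels and fold changes of the 10 genes are therefore a description, and no p-value is given for them.

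The study asked how ginkgetin acts on liver fibrosis, and sequenced RNA from 6 liver samples of rats with liver fibrosis, 3 from rats given ginkgetin at 10 mg/kg/day and 3 from rats given vehicle. Every rat was fibrotic, so no healthy liver stands beside these groups. The strain, sex and age of the rats, the agent that caused the fibrosis and the length of treatment are not stated in the labels. Values are normalized reads, that is, reads per gene divided by 1 scaling factor per library. A fold change is the difference in mean log2(normalized reads + 1), ginkgetin minus vehicle, with its standard error (SE) and n = 3 in each group unless stated otherwise. The columns of the vehicle libraries carry a name that the labels do not use, and they were taken as vehicle because it is the only other group of the series, so every direction rests on that assignment. Nothing in the labels says that the samples of a group came from separate animals, so a p-value here reflects sample-to-sample spread, which may be technical.

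Elastic fibres give tissue its recoil. Tropoelastin, the product of Eln, is laid down on a scaffold of fibrillin microfibrils, fibulins and EMILIN proteins help to place it there, and copper-dependent lysyl oxidases cross-link it. In liver these fibres lie mainly in portal tracts and vessel walls, and they accumulate in scar tissue, where portal fibroblasts and activated stellate cells are regarded as their sources. In bulk tissue, fewer cells of a type and less RNA per cell cannot be told apart.

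The libraries held 13372367 to 14933853 reads assigned to genes. Albumin, the main hepatocyte product, took 6.56% to 12.1% of the reads in the ginkgetin libraries and 2.89% to 9.44% in the vehicle libraries. The lowest of these shares belonged to vehicle library 3, which also stood apart in the genes described here. The fold changes of named genes are given with and without it.

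Elastin, fibrillin-1, LTBP-2, fibulin-5 and the cross-linking enzyme LOXL1 had lower levels in the ginkgetin livers, and in each of these 5 genes all 3 ginkgetin libraries lay below all 3 vehicle libraries. The log2 fold changes ran from -1.44 for Fbln5 to -4.45 for Loxl1. Lox had nearly equal means in the groups, with a log2 fold change of -0.02, and Loxl2 overlapped between them. Of all genes tested, 16.1% had the 3 ginkgetin values below the 3 vehicle values and 11.4% had them above. No member lay above.

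**Figure D1:**
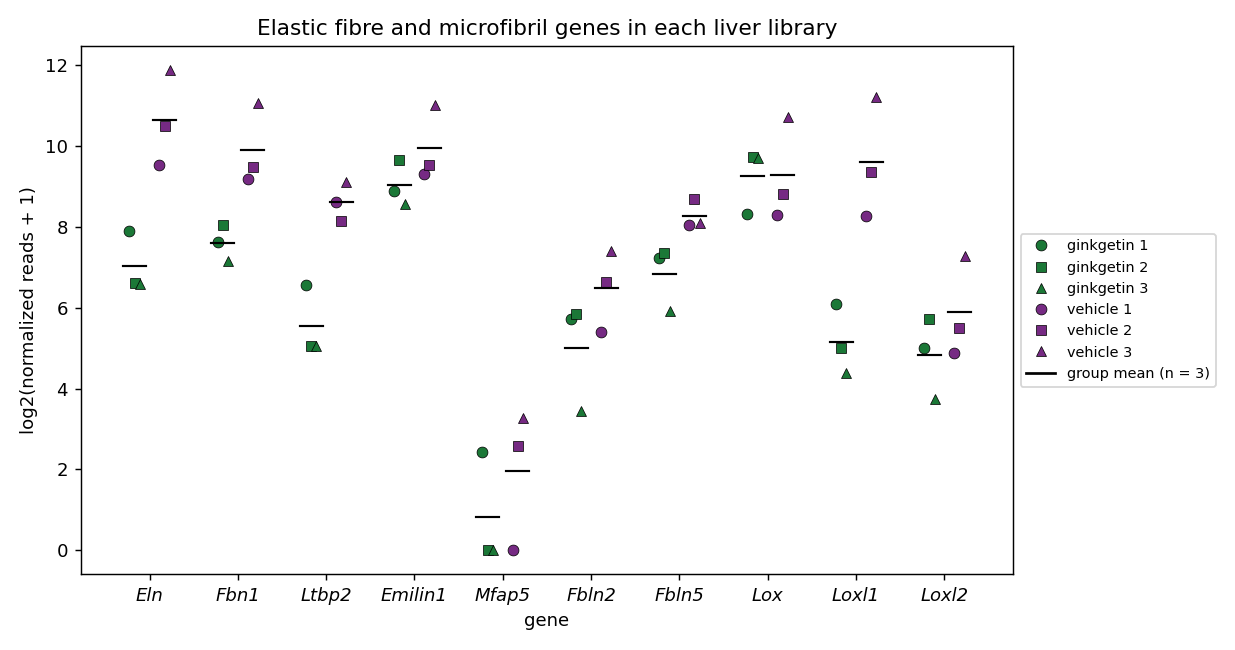
Level of each of the 10 genes in each library, as log2(normalized reads + 1), with ginkgetin libraries in green on the left of each gene and vehicle libraries in purple on the right. Bars are means of 3 libraries. Green and purple points do not overlap for Eln, Fbn1, Ltbp2, Fbln5 and Loxl1.

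Eln encodes tropoelastin, the core protein of the fibre. It had 238, 96.0 and 95.3 normalized reads in ginkgetin libraries 1 to 3, against 740, 1447 and 3774 in vehicle libraries 1 to 3. The highest ginkgetin library held less than the lowest vehicle library, and vehicle library 3 was the highest of all. The log2 fold change was -3.61 (SE 0.597), and it was -2.99 (SE 0.444) without vehicle library 3.

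The microfibril genes were next in order of structure. Fbn1, which encodes fibrillin-1, the main subunit of the microfibril, had 196, 265 and 141 normalized reads with ginkgetin, against 579, 709 and 2153 with vehicle. The groups did not overlap, and the log2 fold change was -2.30 (SE 0.489), or -1.72 (SE 0.289) without vehicle library 3. Ltbp2 encodes a fibrillin-binding protein of the latent TGF-beta binding protein family that does not itself hold latent TGF-beta. It had 92.9, 32.4 and 32.2 normalized reads with ginkgetin, against 393, 281 and 554 with vehicle. The groups lay wholly apart, and the log2 fold change of -3.07 (SE 0.471) was -2.83 (SE 0.483) without vehicle library 3.

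Emilin1 and Mfap5 overlapped between the groups. Emilin1, which encodes a glycoprotein at the interface of elastin and microfibrils, had 477, 801 and 381 normalized reads with ginkgetin, against 632, 736 and 2073 with vehicle. Ginkgetin library 2 lay above vehicle libraries 1 and 2, and the log2 fold change was -0.91 (SE 0.480), or -0.37 (SE 0.305) without vehicle library 3. Mfap5, which encodes the microfibril-associated glycoprotein MAGP-2, was close to the detection limit. It had 4, 0 and 0 reads with ginkgetin, against 0, 6 and 14 with vehicle, and a count of 0 allows up to 3 reads in a library by counting error alone. No difference was detectable for Mfap5 at this depth.

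The fibulins are calcium-binding glycoproteins that bridge elastin and its scaffold. Fbln5 encodes fibulin-5, which binds tropoelastin, LOXL1 and cell-surface integrins. It had 150, 162 and 59.4 normalized reads with ginkgetin, against 262, 413 and 273 with vehicle. Among the 10 genes it was the one in which vehicle library 3 lay below the mean of vehicle libraries 1 and 2, at 0.807 times that mean. Its log2 fold change was -1.44 (SE 0.418) and was -1.53 (SE 0.440) without vehicle library 3. Fbln2, which encodes fibulin-2, a fibulin found in vessel walls and in portal fibroblasts, had 52.0, 56.7 and 9.90 normalized reads with ginkgetin, against 41.5, 98.1 and 168 with vehicle. Vehicle library 1 lay below ginkgetin libraries 1 and 2, so the groups overlapped (log2 fold change -1.47, SE 0.761, and -1.01, SE 0.748, without vehicle library 3).

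The lysyl oxidases were the members with the widest range of fold changes. Loxl1, the family member most closely tied to elastin, had 67.4, 31.2 and 19.8 normalized reads with ginkgetin, against 306, 653 and 2363 with vehicle. Its log2 fold change of -4.45 (SE 0.735) was the largest of the 10, and it was -3.65 (SE 0.529) without vehicle library 3. Lox encodes the founding member of the family, which acts on collagen and elastin. It had 320, 853 and 833 normalized reads with ginkgetin, against 311, 452 and 1694 with vehicle. Ginkgetin libraries 2 and 3 lay above vehicle libraries 1 and 2, so the sign of the Lox fold change depended on the libraries used: -0.02 (SE 0.643) with all 6, 0.70 (SE 0.419) without vehicle library 3, 0.44 without ginkgetin library 1, and -0.52 when vehicle library 1 was left out. Loxl2, an oxidase known for its action on basement membrane and fibrillar collagen, had 31.0, 52.1 and 12.4 normalized reads with ginkgetin, against 28.5, 44.1 and 153 with vehicle. Without vehicle library 3 its log2 fold change was -0.36 (SE 0.636), against -1.06 (SE 0.743) with it.

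**Figure D2:**
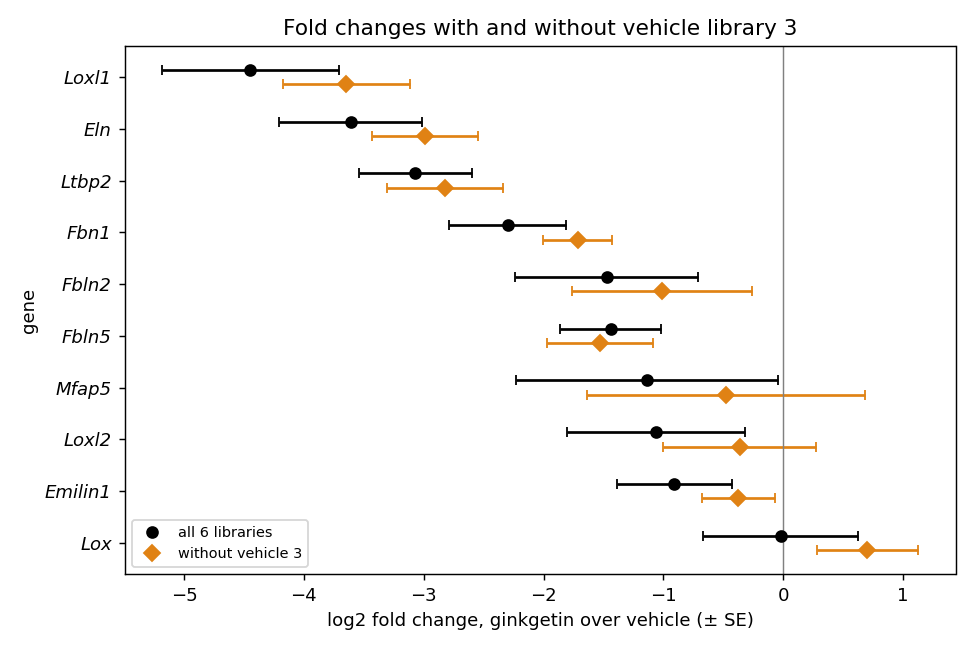
Log2 fold change of each gene, ginkgetin over vehicle, with its standard error, from all 6 libraries (black circles) and without vehicle library 3 (orange diamonds). Loxl1, Eln, Ltbp2 and Fbn1 stay at -1.72 or below in both, whereas Lox moves across 0.

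No member passed an adjusted p of 0.05 over all genes in limma, the main test, in which 0.0137% of the 14639 genes passed, namely Cd276 and LOC367746, neither of them a member. At an unadjusted p of 0.05 there were 5 members, all lower, against a background of 13.2% of genes lower at that level. Without vehicle library 3 limma called Eln, Fbn1, Loxl1 and Ltbp2, where 0.574% of genes were called, and without vehicle library 1 it called the same 4, where 4.75% were called. With recovered read counts as input, edgeR called 0 members, and DESeq2 called the 5 members without overlap, at a background of 9.43%. Because the contrast itself was known when the genes were picked, nothing is read from these counts. The median log2 fold change of members was -1.46, against -0.02 over all genes tested, and -1.27 without vehicle library 3. With 1 library left out it ranged from -2.06 without vehicle library 1 to -0.86 without ginkgetin library 3. The same number of members, 5, lay wholly below vehicle when vehicle library 3 was left out, where 19.3% of all genes did.

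The 10 genes differed in how far vehicle library 3 departed from the other vehicle libraries. Loxl1 stood there at 4.93 times the mean of vehicle libraries 1 and 2, Lox at 4.44 times, Loxl2 at 4.23 times, Eln at 3.45 times and Fbn1 at 3.34 times. Emilin1 stood at 3.03 times that mean and Fbln2 at 2.41 times. Among genes with reads in every library, Ltbp2 and Fbln5, at 1.65 and 0.807 times, were the least raised there. The fold changes of these last genes moved least when the library was left out.

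Because a ratio of genes within a library does not depend on the scaling of that library, the balance between members was also compared. These ratios were chosen after the values had been seen, and they describe read numbers, not molecules, since transcripts differ in length. The Lox to Loxl1 ratio was 4.74, 27.3 and 42.1 in the ginkgetin libraries, against 1.02, 0.692 and 0.717 in the vehicle libraries. The vehicle values lay within a narrow band that included vehicle library 3, and the ginkgetin values lay far above it and were widely spread. The Loxl2 to Loxl1 ratio was 0.459, 1.67 and 0.625 with ginkgetin, against 0.0930, 0.0675 and 0.0650 with vehicle. Loxl1 thus held a lower share against both of its relatives in each ginkgetin library than in any vehicle library.

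Loxl1 was also lower relative to elastin itself. The Loxl1 to Eln ratio was 0.284, 0.325 and 0.208 with ginkgetin, against 0.413, 0.451 and 0.626 with vehicle. Of the scaffold genes, Fbn1 and Emilin1 are shown against Eln, and both moved the other way. The Fbn1 to Eln ratio was 0.823, 2.76 and 1.48 with ginkgetin, against 0.782, 0.490 and 0.570 with vehicle. For the Emilin1 to Eln ratio the values were 2.0, 8.34 and 4.0 with ginkgetin, against 0.854, 0.509 and 0.549 with vehicle. Fibulin-5 also stood higher against elastin, with a Fbln5 to Eln ratio of 0.633, 1.69 and 0.623 with ginkgetin, against 0.354, 0.286 and 0.0722 with vehicle. The Lox to Eln ratio was 1.34, 8.88 and 8.74 with ginkgetin, against 0.420, 0.312 and 0.449 with vehicle. The Ltbp2 to Fbn1 ratio overlapped between groups. Of the 36 ratios among the 9 genes with reads in every library, 20 did not overlap between the groups. The share over all pairs of genes was not computed, and ratios that share a gene are not independent. Nothing is therefore read from this count.

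**Figure D3:**
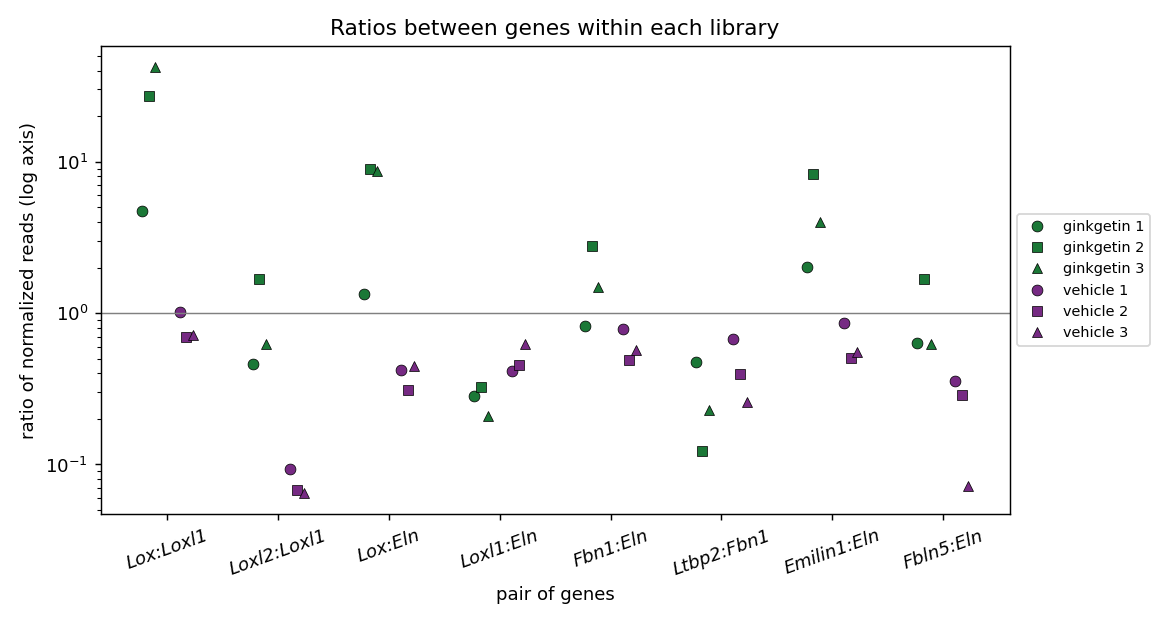
Ratio of normalized reads between pairs of genes within each library, on a log axis, with ginkgetin libraries in green on the left and vehicle libraries in purple on the right. The Lox to Loxl1 ratio lies between 4.74 and 42.1 with ginkgetin and between 0.692 and 1.02 with vehicle.

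In shares of the summed reads of the 10 genes, Eln made up 14.6%, 4.09% and 6.02% with ginkgetin, against 22.5%, 29.9% and 28.6% with vehicle. Lox made up 19.6%, 36.3% and 52.6% with ginkgetin, against 9.44%, 9.33% and 12.8% with vehicle. The set was thus dominated by Lox and Emilin1 reads in the ginkgetin livers, whereas Eln held the largest share in each vehicle liver. Ginkgetin library 1 lay nearest to the vehicle libraries in its shares of Eln, Loxl1 and Lox.

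**Figure D4:**
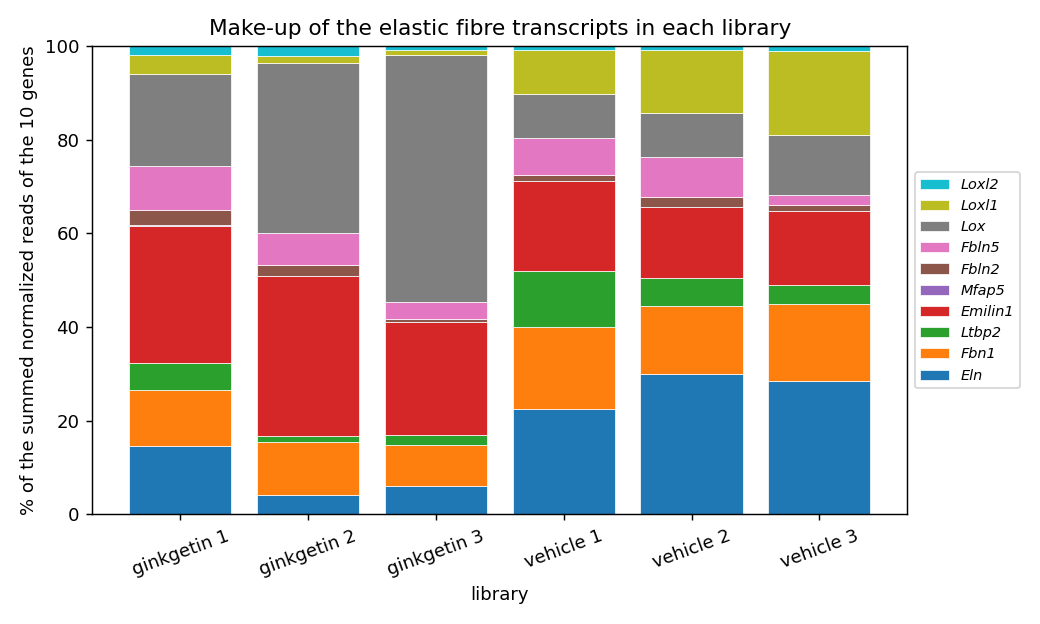
Share of each gene in the summed normalized reads of the 10 genes, 1 bar per library, ginkgetin libraries on the left and vehicle libraries on the right. The Eln share is 4.09% to 14.6% in the ginkgetin bars and 22.5% to 29.9% in the vehicle bars, and the Lox share is 19.6% to 52.6% in the ginkgetin bars and 9.33% to 12.8% in the vehicle bars.

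Promoter sequences are shown for the members whose groups did not overlap, because these genes were lower together. RefSeq promoter windows, 250 bases before to 50 after the annotated start, were matched by symbol for 6 of the 10 genes, Fbn1, Ltbp2, Mfap5, Fbln2, Fbln5 and Loxl1. The windows are on build GRCr8, whereas the expression values were made on mRatBN7.2. Loxl1 lies at chr8:67612175-67612474, Ltbp2 at chr6:110257249-110257548, Fbn1 at chr3:133203341-133203640 and Fbln5 at chr6:126742657-126742956, all on the minus strand. Each is printed 5′ to 3′ in the direction of the gene, with matches to the core SMAD motif CAGAC, on either strand, in capitals.
Loxl1: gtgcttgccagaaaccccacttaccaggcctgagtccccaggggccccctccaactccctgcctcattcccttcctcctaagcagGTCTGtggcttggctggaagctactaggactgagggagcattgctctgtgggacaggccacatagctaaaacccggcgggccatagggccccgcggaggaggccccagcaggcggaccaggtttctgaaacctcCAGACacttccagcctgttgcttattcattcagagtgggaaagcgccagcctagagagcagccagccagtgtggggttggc
Ltbp2: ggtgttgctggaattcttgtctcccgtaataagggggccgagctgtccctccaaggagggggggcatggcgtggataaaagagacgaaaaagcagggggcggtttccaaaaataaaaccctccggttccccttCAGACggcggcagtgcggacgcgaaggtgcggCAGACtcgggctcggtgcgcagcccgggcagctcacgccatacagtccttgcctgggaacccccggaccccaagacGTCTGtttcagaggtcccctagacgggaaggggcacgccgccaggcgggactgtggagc
Fbn1: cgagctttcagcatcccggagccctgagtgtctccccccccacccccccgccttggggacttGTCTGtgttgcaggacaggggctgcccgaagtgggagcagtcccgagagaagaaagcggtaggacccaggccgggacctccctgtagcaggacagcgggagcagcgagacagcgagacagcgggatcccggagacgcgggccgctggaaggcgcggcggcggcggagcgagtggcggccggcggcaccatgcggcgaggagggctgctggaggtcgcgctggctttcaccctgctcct
Fbln5: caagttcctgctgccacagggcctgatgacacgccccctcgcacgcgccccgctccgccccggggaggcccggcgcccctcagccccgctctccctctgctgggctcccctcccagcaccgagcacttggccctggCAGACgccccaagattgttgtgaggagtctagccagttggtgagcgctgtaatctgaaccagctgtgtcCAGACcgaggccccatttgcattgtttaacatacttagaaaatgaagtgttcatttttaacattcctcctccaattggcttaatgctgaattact

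The SMAD core, bound by the transcription factors of TGF-beta signalling, was found in 5 of the 6 windows, all but Mfap5. Ltbp2 held 3 matches, Loxl1 and Fbln5 2 each, and Fbn1 and Fbln2 1 each. Of all 33465 rat promoter windows of the same length, 50.1% held the motif. The TEAD motif GGAATG was found in Loxl1 and Fbln5, against 14.2% of all windows. The Sp1 motif GGGCGG was found in Ltbp2, Fbln2 and Fbln5, against 33.1%. Neither the AP-1 motif TGANTCA (7.33% of all windows) nor the TATA motif TATAAA (14.2%) was found in any of the 6. Both strands were searched for each motif, and the motifs share no matches with one another in these windows. A match describes letters in a window and does not show a binding site.

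Other genes of the elastic fibre, from a list of 22 of which 20 were in the table, mostly had lower means as well. This list and the lists below were also chosen with earlier results of these data known. Their counts and p-values are therefore a description, and no support for the members is read from them. Of the 18 tested, 14 had lower and 4 higher means with ginkgetin, and the median of their log2 fold changes was -1.21, or -0.79 without vehicle library 3. In limma 0 passed over all genes, 7 lower and 1 higher had an unadjusted p under 0.05, edgeR called 0 and DESeq2 called 7, all lower. Of all 14639 genes tested, 1938 lower and 1025 higher had an unadjusted limma p under 0.05. DESeq2 called 1104 of them lower and 276 higher. Adamtsl2, a secreted fibrillin-1 and LTBP-1 binding protein, had 641, 392 and 156 normalized reads with ginkgetin, against 1936, 3786 and 4499 with vehicle (log2 fold change -3.23 with an SE of 0.536 and a limma adjusted p of 0.0688, or -2.99 without vehicle library 3). Ltbp1, the latent TGF-beta binding protein that anchors the latent growth factor to microfibrils, had 425, 289 and 230 with ginkgetin, against 824, 1076 and 1399 with vehicle (-1.82, SE 0.304, limma adjusted p = 0.0688, and -1.63 without vehicle library 3). It was the gene of this list that limma called without vehicle library 3. Without vehicle library 1, limma called 6 of the list.

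Efemp2 encodes fibulin-4, which brings lysyl oxidase to tropoelastin. It had 103, 50.9 and 68.0 normalized reads with ginkgetin, against 192, 300 and 851 with vehicle, a log2 fold change of -2.35 (SE 0.541, limma adjusted p = 0.101, and -1.75 without vehicle library 3). Ltbp3, a further latent TGF-beta binding protein, was at -2.58 (SE 0.629, limma adjusted p = 0.107, and -1.89 without vehicle library 3). The groups did not overlap in 7 genes of the list on the lower side and in 1, Adamtsl4, on the higher side. Over all genes tested, 16.1% lay wholly below vehicle and 11.4% wholly above. Adamtsl4, a microfibril-binding protein named here after its values were seen, had 1423, 961 and 638 normalized reads with ginkgetin, against 517, 541 and 292 with vehicle. The other lysyl oxidase genes, Loxl3 and Loxl4, also named after their values were seen, were at -0.21 (SE 0.694) and 1.02 (SE 0.736), and both overlapped between the groups. They were at 0.20 and 0.12 without vehicle library 3. Loxl1 was thus the member of the 5-gene family without overlap.

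**Figure D5:**
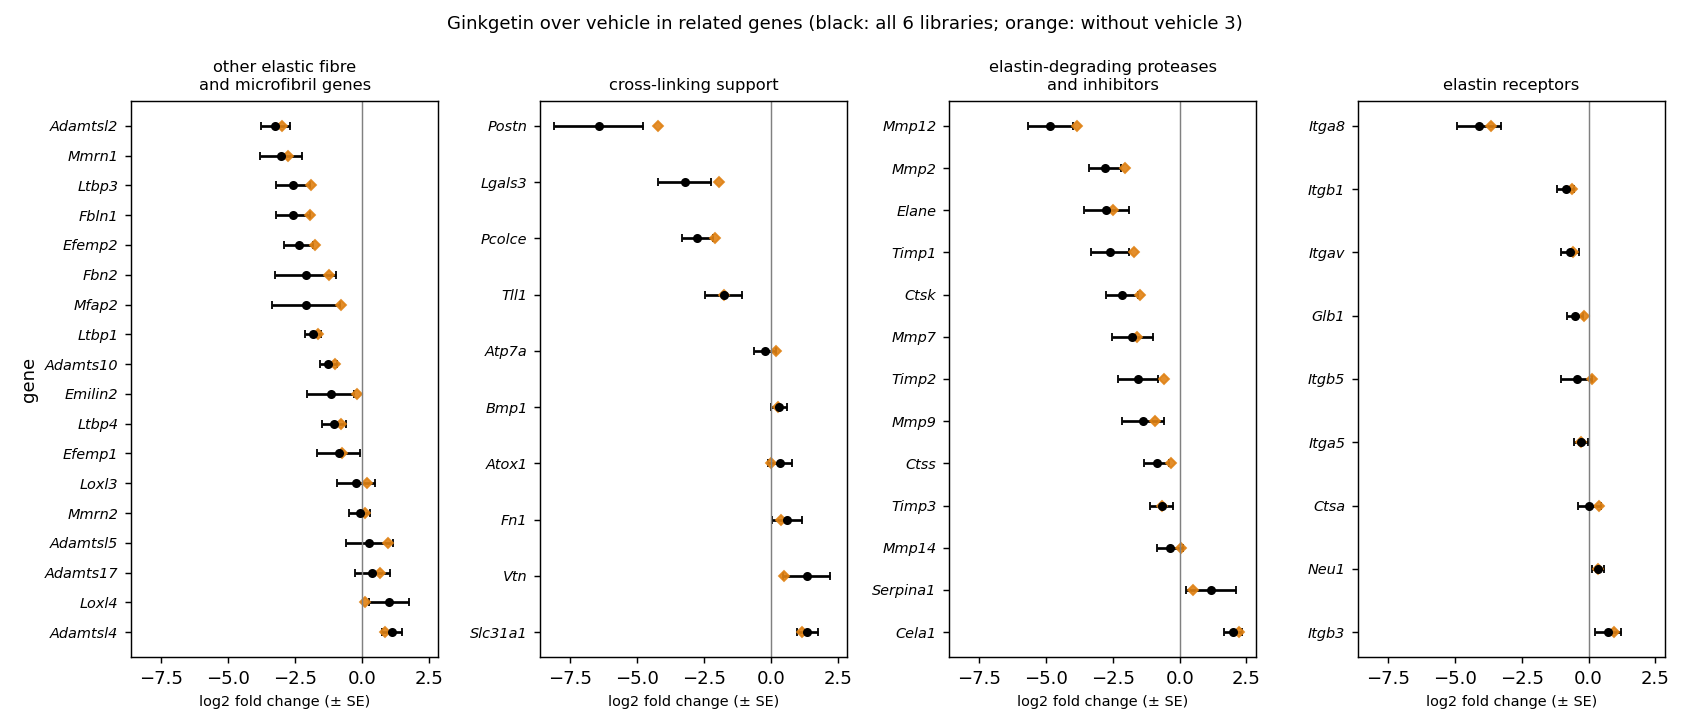
Log2 fold change, ginkgetin over vehicle, of tested genes related to the elastic fibre, in 4 panels, with standard errors from all 6 libraries (black) and the value without vehicle library 3 (orange). Adamtsl2 at -3.23 and Mmp12 at -4.83 lie on the lower side, and Cela1 at 2.0 and Slc31a1 at 1.38 on the higher side. Postn rests on 1 read in the ginkgetin libraries.

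A list of genes linked to cross-linking had means on both sides. It held genes of copper supply and of the processing of pro-enzymes and collagens, and also Postn, Fn1, Lgals3 and Vtn. Fn1 (log2 fold change 0.62, and 0.38 without vehicle library 3) and Vtn (1.34, and 0.49 without it) overlapped between the groups. Of 10 tested, 5 had lower and 5 higher means (median 0.04, or 0.15 with the gene at 0 in the ginkgetin libraries set to 3 reads per library). In limma 0 passed over all genes, 4 lower and 1 higher had an unadjusted p under 0.05, edgeR called 0 and DESeq2 called 2. DESeq2 gave no adjusted p for Tll1, Postn and Lgals3, so it could not call them. Without vehicle library 1 limma called 2 of the list, Pcolce and Postn. Pcolce, an enhancer of procollagen processing, had 174, 137 and 84.1 normalized reads with ginkgetin, against 390, 732 and 2155 with vehicle (-2.75, SE 0.581, limma adjusted p = 0.0912, and -2.08 without vehicle library 3, where it was called). Slc31a1, the copper importer of the cell surface, had 407, 1060 and 787 with ginkgetin, against 357, 269 and 201 with vehicle (1.38, SE 0.381, limma adjusted p = 0.126, and 1.17 without vehicle library 3). Postn, which encodes periostin, a matrix protein that aids lysyl oxidase activation, had 0, 1.16 and 0 normalized reads with ginkgetin, against 16.6, 32.4 and 2394 with vehicle. Lgals3, which encodes galectin-3, was at -3.21 (SE 0.989, limma adjusted p = 0.148, and -1.94 without vehicle library 3), and its vehicle library 3 value of 10346 stood far above 600 and 897 in the others.

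Among elastin-degrading proteases and their inhibitors, 11 of 13 tested genes had lower means (median -1.56, or -1.36 with the gene at 0 in the ginkgetin libraries set to 3 reads per library, and -0.93 without vehicle library 3). In limma 0 passed over all genes, 6 lower and 1 higher had an unadjusted p under 0.05, edgeR called 0 and DESeq2 called 6. Mmp12, macrophage elastase, had 18.8, 6.94 and 19.8 normalized reads with ginkgetin, against 142, 307 and 1707 with vehicle (-4.83, SE 0.859, limma adjusted p = 0.0774, and -3.82 without vehicle library 3). Mmp2, a gelatinase that also cleaves elastin, was at -2.79 (SE 0.594, limma adjusted p = 0.0919, and -2.06 without vehicle library 3), and the protease inhibitor gene Timp1 at -2.60 (SE 0.699, limma adjusted p = 0.120, and -1.70 without vehicle library 3). Cela1, an elastase of the chymotrypsin family, had 804, 562 and 693 normalized reads with ginkgetin, against 210, 101 and 227 with vehicle (2.0, SE 0.337, limma adjusted p = 0.0688, and 2.21 without vehicle library 3). Without vehicle library 3 limma called Mmp2, Mmp12 and Cela1, and without vehicle library 1 these 3, Timp1 and Elane. Elane was close to the detection limit, with 0, 0 and 0 reads with ginkgetin and 1, 16 and 14 reads with vehicle.

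Of 9 tested elastin receptor genes, subunits of the elastin receptor complex and of integrins, 6 had lower and 3 higher means (median -0.45, or -0.16 without vehicle library 3). In limma 0 passed over all genes, 2 lower had an unadjusted p under 0.05, edgeR called 0 and DESeq2 called 1, Itga8, as limma did without vehicle library 1. Itga8, the integrin subunit of stellate and smooth muscle cells, had 74.1, 41.7 and 6.19 normalized reads with ginkgetin, against 362, 346 and 905 with vehicle (-4.09, SE 0.825, limma adjusted p = 0.0910, and -3.64 without vehicle library 3). Its partner Itgb1, which pairs with many alpha subunits, was at -0.85 (SE 0.313, limma adjusted p = 0.191, and -0.64 without vehicle library 3), Itgav at -0.69 (SE 0.330, limma adjusted p = 0.277, and -0.57 without vehicle library 3) and the receptor-complex galactosidase gene Glb1 at -0.51 (SE 0.310, limma adjusted p = 0.374, and -0.16 without vehicle library 3).

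The 5 genes outside all lists that followed the mean of the 10 members most closely over the 6 libraries were Acer3, an alkaline ceramidase gene (r = 0.998), Scarf2, a scavenger receptor family gene (0.997), Vldlr, a lipoprotein receptor gene (0.997), Igfbp7, a secreted growth factor binding protein gene (0.996), and Nradd, a death-domain gene (0.996). Without vehicle library 3, over 5 libraries, they were Bok, Stc1, Tnip1, Scarf2 and Atp8b2, so Scarf2 was the gene on both lists. It had 89.6, 62.5 and 32.2 normalized reads with ginkgetin, against 141, 274 and 598 with vehicle. These r values were picked as the highest over all tested genes outside the lists, in libraries that differ in group and in vehicle library 3, and they carry no test. Among the members, r with the mean of the set was 0.979 for Loxl1, 0.972 for Fbn1 and 0.965 for Eln, and 0.309 for Lox. With vehicle library 3 left out it was 0.964 for Loxl1, 0.931 for Fbn1 and 0.939 for Eln, and -0.618 for Lox, whose sign thus rests on that library.

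Portal fibroblast and cholangiocyte markers were ordered between the libraries much as the members were, and the part of any cell type in the results was not tested. The members' mean level, in log2 units centred over the 6 libraries, was -0.51, -0.78 and -1.63 with ginkgetin, against 0.07, 0.84 and 2.02 with vehicle. Portal fibroblast markers stood at -0.54, -1.31 and -1.31 with ginkgetin, against 0.14, 0.72 and 2.31 with vehicle, and 8 of 9 tested had lower means. Their summed level was 4322 to 6669 normalized reads with ginkgetin and 3464 to 6051 with vehicle, most of it from 1 gene, Dpt. Dpt was the tested marker with a higher mean (log2 fold change 0.57, and 0.56 without vehicle library 3). It had 4664, 4165 and 6546 normalized reads with ginkgetin, against 4145, 2826 and 3340 with vehicle, without overlap. Col15a1, which was not tested, was at 0 in all 3 ginkgetin libraries and had 0, 1 and 11 reads in the vehicle libraries. Thy1, the surface marker of portal fibroblasts, had 6.63, 0 and 6.19 normalized reads with ginkgetin, against 16.6, 87.3 and 170 with vehicle. Cholangiocyte markers stood at -0.82, -1.82 and -2.37 with ginkgetin, against 0.98, 1.34 and 2.68 with vehicle, with 8 of 8 lower. Their sums were 319 to 784 with ginkgetin and 2049 to 21056 with vehicle. The highest sum was that of vehicle library 3, where 18034 came from 1 gene, Spp1. In limma 0 of these markers passed over all genes with all 6 libraries, where 6 portal fibroblast and 8 cholangiocyte markers, all lower, had an unadjusted p under 0.05, edgeR called 0 and DESeq2 called 6 of each list. DESeq2 gave no adjusted p for Spp1, so it could not call that gene. Without vehicle library 3 limma called 0 portal fibroblast and 4 cholangiocyte markers, Epcam, Cftr, Sctr and Cldn4. Without vehicle library 1 it called 2 portal fibroblast markers, Entpd2 and Thy1, and 5 cholangiocyte markers.

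Other mesenchymal markers went less evenly with the members. Stellate cell markers, 6 of 12 lower, stood at -0.01, -0.10 and -0.67 with ginkgetin, against -0.32, -0.23 and 1.33 with vehicle (sums 5604 to 8076 with ginkgetin and 4459 to 11692 with vehicle). In limma 0 of them passed over all genes, and 4 lower and 1 higher had an unadjusted p under 0.05. EdgeR called 0, and DESeq2 called 4 lower and 1 higher. The groups did not overlap in 4 on the lower side and 1 on the higher side. Limma called 3 stellate markers without vehicle library 3 and also without vehicle library 1, and these 3 went in different directions. Pdgfrb (log2 fold change -2.49, and -1.97 without vehicle library 3) and Cygb (-3.50, and -2.82 without it) were lower with ginkgetin. Ecm1 was higher (2.17, and 2.02 without vehicle library 3). Nes (-2.92, and -1.96 without vehicle library 3) and Des (-2.29, and -1.25 without it) were also lower without overlap. The median log2 fold change of the stellate list was -0.10, and 0.35 without vehicle library 3. Smooth muscle markers, 6 of 9 lower, stood at 0.63, 0.02 and -0.82 with ginkgetin, against -1.08, -0.47 and 1.72 with vehicle (sums 2004 to 2706 with ginkgetin and 2192 to 6887 with vehicle). The direction of the smooth muscle list rested on vehicle library 3: the median log2 fold change was -0.32 with it and 0.52 without it, where 3 of 9 were lower. Mesothelial markers, 4 of 6 lower, had sums of 166 to 404 with ginkgetin and 497 to 966 with vehicle. Most of each vehicle sum came from 1 gene, Msln, the mesothelin gene also found in portal fibroblasts. Msln had 21.0, 26.6 and 1.24 normalized reads with ginkgetin, against 300.1, 725 and 488 with vehicle. In the centred level of this list the groups overlapped, with ginkgetin library 2 above vehicle library 1. Gpm6a (log2 fold change 0.76, and 0.40 without vehicle library 3) and Upk3b (1.14, and 0.62 without it) had higher means with ginkgetin, and both overlapped between the groups. Endothelial markers, 2 of 7 lower, had sums of 2656 to 3849 with ginkgetin and 2925 to 4155 with vehicle. These sums hold genes that went in different directions. Vwf was lower without overlap (log2 fold change -2.08, and -1.89 without vehicle library 3). Of the 5 with higher means, Clec4g had the largest fold change (1.96, and 1.36 without vehicle library 3), and its groups overlapped. Hepatocyte markers, 10 of 10 higher, stood at 0.38, 0.65 and 0.93 with ginkgetin, against 0.40, -0.25 and -2.11 with vehicle, with sums of 1366970 to 2269090 with ginkgetin and 283473 to 1761780 with vehicle. With vehicle library 3 left out, 1 of the 10 was lower, and the median log2 fold change was 0.58, against 1.30 with it.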

How the data were processed

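Liver RNA of 6 samples, 3 per group, was analysed. Per the labels' protocols, total RNA was extracted with RNeasy columns and made into libraries with a SMARTER mRNA-Seq kit. Per the submitters' processing notes the genome build was mRatBN7.2. No source used here names the aligner, the counter, the annotation or whether strand was used. The values the authors deposited are a signal, reads per gene divided by a library factor: 99.673% of values came out as whole reads within 0.02, and 53 rows did not. The recovered reads summed to 13372367 to 14933853 per library.

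Values were tested as log2(value + 1) with limma 3.58.1 (R 4.3.3; trend and robust moderation), keeping genes that reached 1 in 3 or more libraries, 14639 of 16209 rows, with Benjamini-Hochberg adjustment at 0.05. On recovered reads, edgeR 4.0.16 and DESeq2 1.42.0 were alternatives. The members and all gene lists were chosen with earlier results of these data known. Genes planned to be named were all 10 members, up to 4 genes of smallest p in each other list, and the 5 genes outside the lists most correlated with the members' mean. For the cell type markers not all of these are named in the text. Some genes outside this rule, such as Dpt, Spp1, Upk3b, Des and Elane, were named after their values were seen. The floor of 3 reads covers counting error only. Vehicle libraries are numbered by their column. Other settings tried were pseudocounts, filters, scalings, a replicate block and leaving out each library.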

Additional observations from a re-analysis of the deposited data

How the results depend on the processing

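Of the members, 8 had negative fold changes in all 17 alternative settings, and Mfap5 in the 16 that kept it, since a minimum of 10 left it out. Lox turned positive without ginkgetin library 1 and without vehicle library 3. Equal library totals moved the median of all genes to -0.53, against -0.02, so fold changes under it are relative to that shift. Limma called 2 genes over all genes in the main setting, 5 with a pseudocount of 5, 94 with equal library totals, 1 with quantile scaling, 27 without trend and robust moderation, and 0 to 696 when 1 library was left out, with 84 without vehicle library 3 and 696 without vehicle library 1. On recovered reads edgeR called 0 and DESeq2 1380. Members called were 3 with equal library totals, 5 with DESeq2 and 0 to 4 with 1 library left out. Other elastic fibre genes called were 2 with equal library totals, 7 with DESeq2 and 0 to 6 with 1 library left out. The cause was not tested. With the replicate block, limma called 0 genes and 0 members. Deviations of same-numbered samples correlated at -0.16, 0.03 and -0.21, and those of differently numbered samples at -0.10 to 0.20. No positive correlation set the same-numbered samples apart, but vehicle numbers come from the columns, so this check cannot exclude a pairing. Mfap5, at 0 to 14 reads, is limited by depth.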
